A study of Homo sapiens with 6 samples.

Results

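The genes that carry glucose to lactate and pyruvate to acetyl-CoA were followed in HOS cells, a line established from a human osteosarcoma, after treatment for 24 h with Agrimol B, a phloroglucinol-type polyphenol found in agrimony. The 37 genes were listed by symbol for their place in the pathway: glucose transporters, the enzymes of glycolysis, the enzymes that make and break fructose-2,6-bisphosphate, lactate dehydrogenases, monocarboxylate transporters, the mitochondrial pyruvate carrier, and the pyruvate dehydrogenase complex with its kinases and phosphatases. All 37 had a row among the 16376 genes of the deposited table, and 36 of them averaged at least 1 FPKM over the 6 libraries and were tested. FPKM counts sequenced fragments per kilobase of transcript, scaled to the mapped fragments of a library. Each group had 3 libraries: HOS cells labelled wild type and treated with Agrimol B, and HOS cells labelled wild type and listed with no treatment. The labels give neither the dose nor whether the untreated cells received solvent, and they do not say that replicates came from separate cultures, so p-values here reflect only how much these libraries vary, and that variation could be technical.

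Glycolysis splits glucose into pyruvate in the cytosol, and lactate dehydrogenase turns pyruvate into lactate, which leaves the cell through monocarboxylate transporters. The alternative route takes pyruvate through the mitochondrial pyruvate carrier to the pyruvate dehydrogenase complex, which is switched off by kinases and on by phosphatases acting on its E1 alpha subunit. Many tumour cells, osteosarcoma cells among them, send much of their glucose to lactate even when oxygen is present. RNA levels do not measure the flux through any of these steps.

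With Agrimol B, 14 of the 36 tested genes fell and 4 rose. The 14 that fell included both lactate dehydrogenase genes, LDHA and LDHB, the aldolases ALDOA and ALDOC, PGK1 and PGAM1 of lower glycolysis, and PDHB, DLAT and DLD of the pyruvate dehydrogenase complex. The 4 that rose were the hexokinase HK2, the enolase ENO2, the carrier subunit MPC1 and the phosphatase PDP2. Falls made up 38.9% of the tested members, against 21.4% of all 12143 genes tested. Rises made up 11.1% of the members, against 30.6% of all genes tested. Either way 18 of the 36 members were called, against 52.0% of all genes tested, so the share called was near that of genes at large. The median difference was -0.16 over the members and 0.07 over all genes tested, both on the scale of log2(FPKM + 1), Agrimol B minus control.

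**Figure D1:**
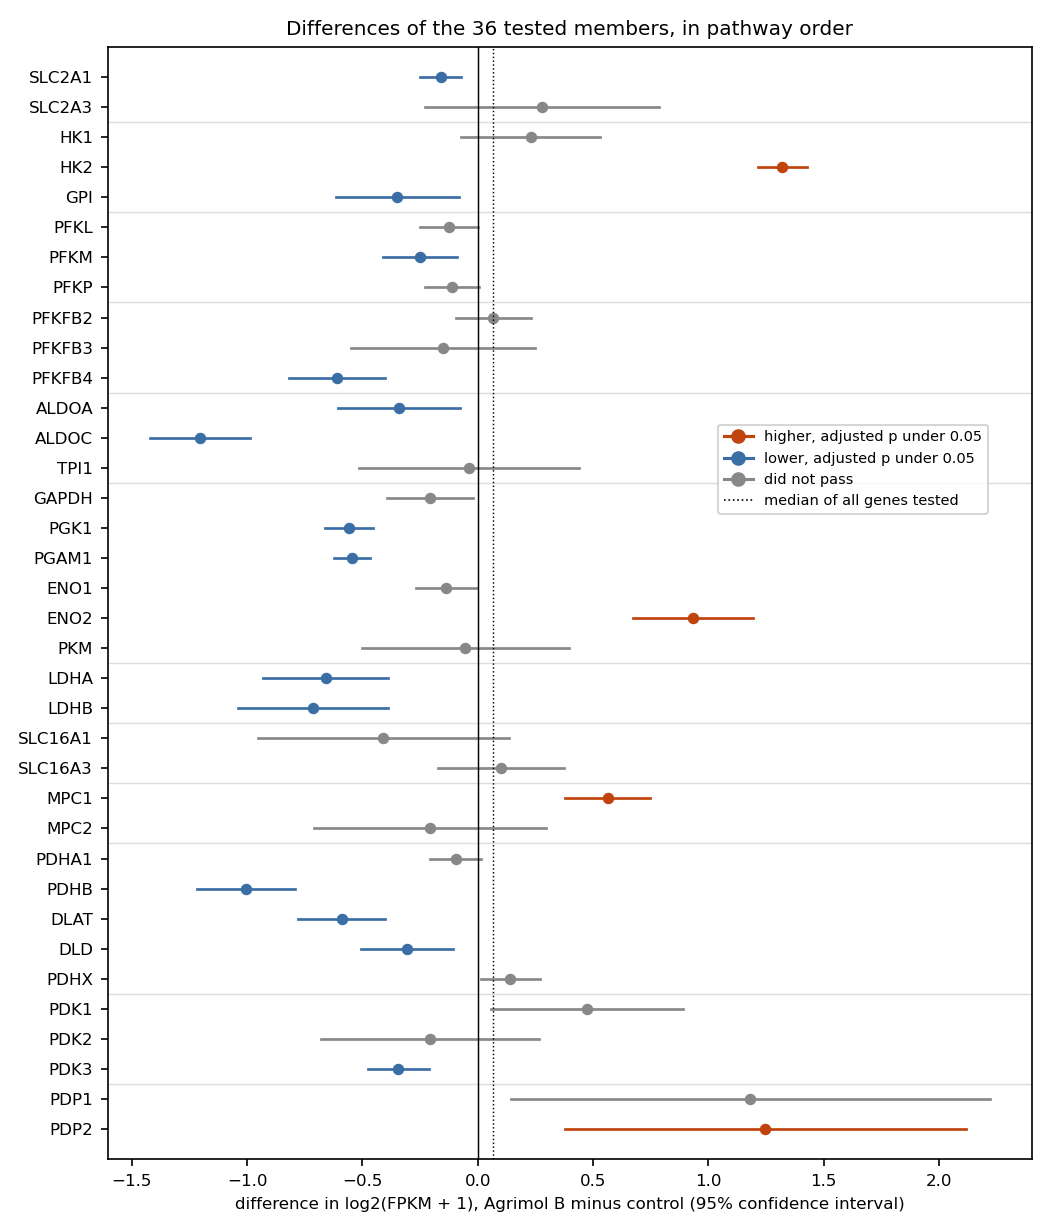
Differences in log2(FPKM + 1), Agrimol B minus control, for the 36 tested members in pathway order, with 95% confidence intervals from limma (3 libraries per group). Colours mark members that passed the test in each direction, and the dotted line is the median of all genes tested, 0.07. The points run from -1.20 for ALDOC to 1.32 for HK2, and most lie left of 0.

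A gene was called when its adjusted p was under 0.05 in limma, fitted to log2(FPKM + 1) over all 12143 genes with Benjamini-Hochberg adjustment. Single-gene p-values below are of this kind. Differences are on that log2 scale and are given with their standard errors, while a fold divides one group's mean FPKM by the other's. Median-ratio scaling of the libraries moved the calls to 4 higher and 19 lower among the members, against 25.4% and 25.9% of all genes tested. With quantile normalization the members stood at 4 higher and 15 lower, against 25.6% and 25.4% of all genes.

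Total FPKM lay between 352990 and 355241 in the Agrimol B libraries and between 355550 and 359537 in the control libraries. FPKM is already scaled to mapped fragments, so these totals do not measure library size. Depths inferred from the steps of very low values were 1.01 to 1.19 and 0.99 to 1.04 times that of the first control library, in that order. Only 4.98% to 10.8% of those values shared the common ratio of a pair of libraries, so the depths are rough. The number of reads is not known from these files, so counting error cannot be given. Of 7 markers of mesenchymal and osteoblast-lineage cells, all 7 stood above 1 FPKM in each library, while PTPRC of blood cells, PECAM1 and CDH5 of endothelium and ALB of liver stayed under 0.5 FPKM. Of 2 neuronal markers, SYT1 also stayed under 0.5 FPKM, but RBFOX3 stood at 2.82, 2.67 and 3.34 FPKM with Agrimol B and 3.10, 4.59 and 4.74 FPKM in control, and did not pass. The summed mesenchymal markers lay between 1023 and 1078 FPKM with Agrimol B and between 1475 and 1566 FPKM in control, and the summed epithelial keratin, EPCAM and CDH1 values between 289.6 and 320.2 FPKM and between 529.3 and 591.0 FPKM in the same order. Taken singly, VIM, COL1A1, COL1A2, SPARC, TWIST1, ALPL, KRT18 and KRT8 were called lower. RUNX2 and EPCAM did not pass, and CDH1 was too low to be tested. The part of these markers in the results below was not tested. In bulk RNA, fewer cells of one kind and less RNA per cell cannot be told apart. For between 249 and 289 of the tested genes per library, 1 library stood more than 1.5-fold apart from both others of its group.

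Glucose enters through facilitative transporters. SLC2A1 encodes GLUT1, the widely expressed basal transporter (chromosome 1, 42925375 to 42959176, minus strand; GENCODE 29 on hg38, as for the other genes). It stood at 26.3, 26.4 and 26.0 FPKM in the Agrimol B libraries, against 29.4, 29.1 and 29.9 FPKM in the control libraries. The replicates were tight and the groups did not overlap, so a fall of only 1.12-fold passed the test (difference -0.16 ± 0.04, adjusted p = 0.0120). SLC2A3, which encodes the high-affinity transporter GLUT3, stood at 6.45, 5.98 and 10.3 FPKM with Agrimol B, against 7.19, 5.56 and 5.10 FPKM in control. The groups overlapped, the third Agrimol B library was the high one, and the 95% interval of the difference ran from -0.23 to 0.79.

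Hexokinases trap glucose in the cell by phosphorylating it. HK2, the inducible isoform that can bind the mitochondrial outer membrane (chromosome 2, 74833981 to 74893359, plus strand), gave the largest difference upward among the members on the log2(FPKM + 1) scale. PDP1 had a larger ratio of means (2.70) without passing, and the difference of PDP2 was above that of HK2 with a pseudocount of 0.1 (1.47 against 1.39), with libraries rescaled to equal totals (1.41 against 1.39) and without the third control library (1.68 against 1.31). The HK2 values were 28.5, 29.8 and 28.2 FPKM with Agrimol B and 11.1, 10.9 and 10.8 FPKM in control, which is 2.64-fold higher with Agrimol B (difference 1.32 ± 0.04, adjusted p = 1.46e-05). The smallest treated value was far above the largest control value, and 98.3% of all tested genes had a smaller absolute difference. HK1, the constitutive isoform, stood at 55.6, 54.7 and 67.2 FPKM with Agrimol B and 54.7, 53.9 and 42.7 FPKM in control. It did not pass (difference 0.23 ± 0.12, adjusted p = 0.168), although every Agrimol B value was above every control value by a narrow margin. HK1 remained the more abundant hexokinase per length in each library, but HK2 made up 33.9%, 35.2% and 29.6% of the summed hexokinase FPKM with Agrimol B, against 16.9%, 16.8% and 20.1% in control. The sum of both was 88.0 ± 6.45 FPKM with Agrimol B and 61.4 ± 6.90 FPKM in control (SD, n = 3 each).

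The promoters of both hexokinases are shown because HK2 had the largest called difference upward on the log2(FPKM + 1) scale and its paralog did not pass. Each window runs from 250 bases before to 50 bases after the RefSeq start (GRCh38.p14, plus strand), at chr2:74833877-74834176 for HK2 and chr10:69269750-69270049 for HK1. The HK1 window lies at the upstream end of the gene, and HK1 has further start sites that it does not cover. Gene-level values do not show which start these cells use, so the window shown may not be the active promoter. Capitals mark 2 motifs searched on both strands: ACGTG or GCGTG, the core bound by hypoxia-inducible factors, and TGATGNAA, the composite element bound by C/EBP and ATF factors.
HK2: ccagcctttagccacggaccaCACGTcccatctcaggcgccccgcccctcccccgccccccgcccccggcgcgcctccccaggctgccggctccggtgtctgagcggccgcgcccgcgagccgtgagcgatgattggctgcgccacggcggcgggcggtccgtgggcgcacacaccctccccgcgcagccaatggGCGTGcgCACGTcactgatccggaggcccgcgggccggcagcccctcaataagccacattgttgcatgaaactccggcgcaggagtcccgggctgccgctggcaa
HK1: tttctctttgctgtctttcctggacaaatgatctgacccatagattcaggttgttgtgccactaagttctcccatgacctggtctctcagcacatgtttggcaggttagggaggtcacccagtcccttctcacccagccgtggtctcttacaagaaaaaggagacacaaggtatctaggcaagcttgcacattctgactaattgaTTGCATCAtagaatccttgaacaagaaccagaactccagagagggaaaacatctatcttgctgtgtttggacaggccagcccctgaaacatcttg
The HK2 window held 3 matches to the hypoxia core and none to the composite element, at 74.3% G and C. The HK1 window held no hypoxia core and 1 composite element, at 46.7% G and C. The hypoxia core is common: it lay in 22 of the 33 member promoters found in the RefSeq table (66.7%), in 64.5% of the promoters of tested genes and in 48.4% of all 27305 promoters. The composite element lay in 1 member promoter, that of HK1, and in 1.56% of the promoters of tested genes. All 4 members that rose and 12 of the 14 that fell had a hypoxia core match. Of the 18 tested members without a call, those with a match were ENO1, GAPDH, PDHA1, PFKFB3, PFKL and PKM. Members with no promoter found could not be searched, so a member counted here without a match may be one that was not searched. A link between the motif and the calls was not tested.

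GPI interconverts glucose-6-phosphate and fructose-6-phosphate. It stood at 81.9, 69.4 and 90.6 FPKM with Agrimol B and 104.2, 110.0 and 93.5 FPKM in control. The groups came within a few FPKM of each other, and the fall of 1.27-fold (difference -0.35 ± 0.11, adjusted p = 0.0384) was lost when any of 4 single libraries was left out (adjusted p 0.0724 to 0.109).

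Phosphofructokinase commits sugar to glycolysis, and its muscle, platelet and liver subunits assemble into tetramers. PFKM, the muscle subunit, stood at 29.6, 26.9 and 27.9 FPKM with Agrimol B, against 35.3, 34.8 and 31.0 FPKM in control. The groups did not overlap and PFKM fell 1.20-fold (difference -0.25 ± 0.07, adjusted p = 0.0201), a call lost without any of 4 single libraries (adjusted p 0.0560 to 0.0636). PFKP, the platelet subunit and the most abundant of the 3, averaged 116 ± 2.15 FPKM with Agrimol B and 126 ± 7.04 FPKM in control. PFKL, the liver subunit, averaged 22.3 ± 0.262 FPKM with Agrimol B and 24.5 ± 1.34 FPKM in control. Both lay lower in every Agrimol B library but did not pass (adjusted p = 0.101 and 0.0856), and both passed with median-ratio scaling (adjusted p = 0.0216 and 0.0260).

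Fructose-2,6-bisphosphate is the strongest activator of phosphofructokinase, and the PFKFB enzymes both make and remove it. PFKFB4 (chromosome 3, 48517684 to 48562015, minus strand) stood at 1.32, 1.11 and 1.37 FPKM with Agrimol B and 2.16, 2.64 and 2.59 FPKM in control. It was low in both groups, the groups did not overlap, and it fell 1.94-fold by the ratio of means (difference -0.61 ± 0.08, adjusted p = 0.00177). PFKFB3, the isoform with the strongest bias towards synthesis, stood at 9.52, 8.25 and 7.70 FPKM with Agrimol B and 7.97, 8.63 and 12.4 FPKM in control. PFKFB2, the heart isoform, averaged 6.47 ± 0.380 FPKM with Agrimol B and 6.13 ± 0.369 FPKM in control. Neither passed (adjusted p = 0.477 and 0.428), and the groups overlapped in both. PFKFB4 was 7.82% ± 0.918 of the summed FPKM of these 3 genes with Agrimol B and 13.6% ± 1.76 in control.

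Aldolase cleaves fructose-1,6-bisphosphate into trioses. ALDOC, the isoform best known from brain (chromosome 17, 28573115 to 28577264, minus strand), gave the largest fall of all members. It stood at 4.02, 3.69 and 3.87 FPKM with Agrimol B, against 10.3, 8.97 and 11.4 FPKM in control, a fall of 2.65-fold (difference -1.20 ± 0.09, adjusted p = 0.000167). No treated library came near the lowest control library. ALDOA, the main aldolase of most tissues, stood at 161.2, 204.6 and 214.1 FPKM with Agrimol B and 245.2, 251.5 and 234.4 FPKM in control. It fell 1.26-fold (difference -0.34 ± 0.11, adjusted p = 0.0390), with the first Agrimol B library lowest. That call was lost without any of 4 single libraries (adjusted p 0.0542 to 0.103) and with quantile normalization (adjusted p = 0.0862). ALDOC was a minor part of aldolase RNA in both groups, at 1.99% ± 0.380 of the summed FPKM with Agrimol B and 4.04% ± 0.598 in control.

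The promoters of the aldolases are shown because ALDOC had the largest fall, with windows and capitals as for the hexokinases. They lie at chr17:28576846-28577145 (minus strand) for ALDOC and chr16:30064029-30064328 (plus strand) for ALDOA, which has further start sites.
ALDOC: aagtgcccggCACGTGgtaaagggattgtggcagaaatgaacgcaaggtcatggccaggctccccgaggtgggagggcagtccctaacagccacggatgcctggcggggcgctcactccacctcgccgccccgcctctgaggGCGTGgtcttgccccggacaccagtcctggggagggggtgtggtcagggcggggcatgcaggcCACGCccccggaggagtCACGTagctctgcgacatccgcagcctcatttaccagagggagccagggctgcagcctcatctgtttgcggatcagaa
ALDOA: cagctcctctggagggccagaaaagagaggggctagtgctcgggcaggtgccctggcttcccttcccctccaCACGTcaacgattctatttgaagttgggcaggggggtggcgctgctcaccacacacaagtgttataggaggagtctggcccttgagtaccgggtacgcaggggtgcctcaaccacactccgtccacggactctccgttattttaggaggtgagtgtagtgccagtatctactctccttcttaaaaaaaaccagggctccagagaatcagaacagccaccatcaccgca
The ALDOC window held 5 matches to the hypoxia core, of which 2 overlap as both strands of 1 palindrome, and the ALDOA window held 1. The core also lay in 64.5% of the promoters of tested genes, and a link between these matches and the direction of any gene was not tested.

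TPI1, which interconverts the trioses, stood at 233.7, 228.9 and 275.7 FPKM with Agrimol B and 250.4, 331.0 and 193.1 FPKM in control. The control libraries were spread so widely that the 95% interval of the difference, -0.52 to 0.44, allows a change in either direction. GAPDH, which oxidises glyceraldehyde-3-phosphate and is often used as a loading control, was the most abundant member. It stood at 2486, 2096 and 2033 FPKM with Agrimol B and 2551, 2530 and 2536 FPKM in control. The control values were nearly equal and all above the treated ones. The difference of -0.21 ± 0.08 did not pass (adjusted p = 0.0614), but it did with median-ratio scaling (difference -0.28, adjusted p = 0.0260) and without the first Agrimol B library (difference -0.30, adjusted p = 0.00152). GENCODE 29 names 62 pseudogenes after GAPDH, and 13 of the 37 members have at least 1, so reads may have been split between copies.

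The next 2 steps fell by similar amounts. PGK1, which makes the first ATP of the pathway (chromosome X, 77910739 to 78129296, plus strand), stood at 40.2, 43.3 and 40.6 FPKM with Agrimol B and 60.9, 61.8 and 61.6 FPKM in control. PGAM1, the phosphoglycerate mutase (chromosome 10, 97426160 to 97433441, plus strand), stood at 151.9, 149.3 and 153.0 FPKM with Agrimol B and 218.9, 226.4 and 219.1 FPKM in control. In both genes the gap between the groups was many times the spread within them. PGK1 fell 1.48-fold (difference -0.56 ± 0.04, adjusted p = 0.000179) and PGAM1 1.46-fold (difference -0.55 ± 0.03, adjusted p = 7.76e-05). PGAM1 has 13 named pseudogenes and a near-identical retrogene, PGAM4, which averaged 0.901 ± 0.0707 FPKM with Agrimol B and 1.38 ± 0.346 FPKM in control and did not pass.

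Enolase makes phosphoenolpyruvate. ENO2, the isoform typical of neurons (chromosome 12, 6913745 to 6923698, plus strand), stood at 29.2, 33.6 and 27.6 FPKM with Agrimol B and 16.9, 13.4 and 15.6 FPKM in control. It rose 1.97-fold (difference 0.93 ± 0.11, adjusted p = 0.000814), with no overlap. ENO1, the ubiquitous isoform, stood at 1020, 928.1 and 932.4 FPKM with Agrimol B and 996.6, 1074 and 1094 FPKM in control, and the first Agrimol B library lay above the first control library. It did not pass (difference -0.14 ± 0.05, adjusted p = 0.0795), was called lower with median-ratio scaling (adjusted p = 0.0246), and had the opposite sign with quantile normalization (difference 0.03). ENO2 was 3.05% ± 0.383 of enolase FPKM with Agrimol B and 1.44% ± 0.221 in control, so its rise left the sum of both, 990.2 ± 50.9 and 1070 ± 50.4 FPKM in that order, set almost wholly by ENO1. PKM, the pyruvate kinase, stood at 719.3, 505.4 and 679.8 FPKM with Agrimol B and 622.0, 805.9 and 551.7 FPKM in control. Its groups overlapped and the 95% interval ran from -0.50 to 0.40. Gene-level values do not separate its M1 and M2 splice forms.

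**Figure D2:**
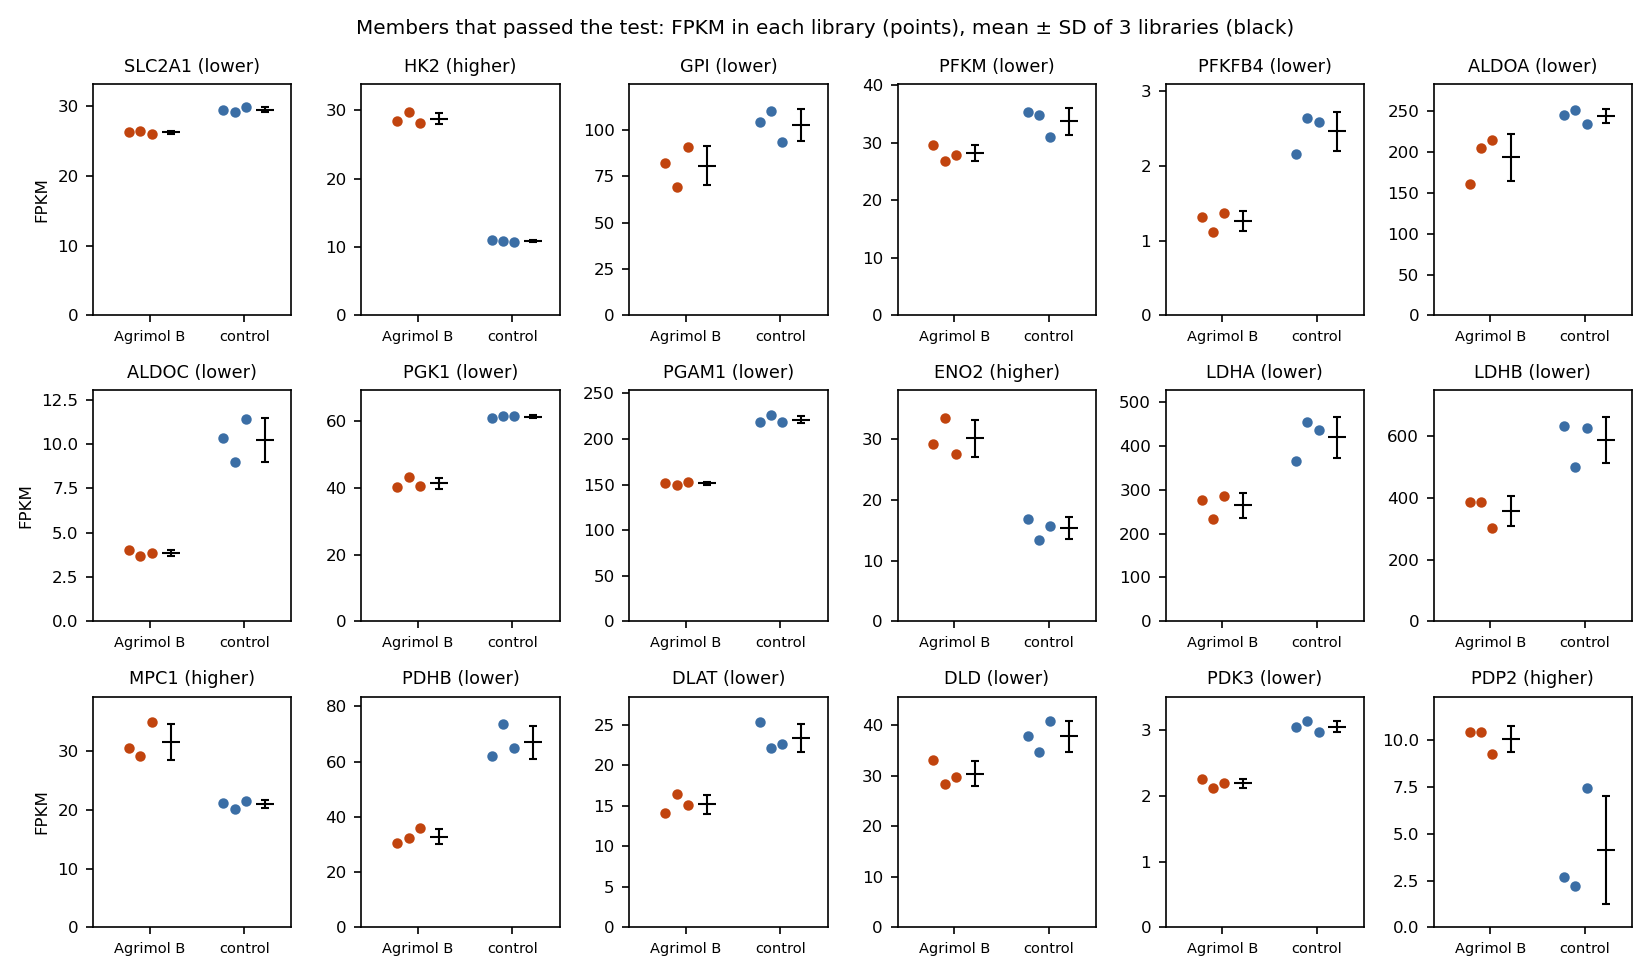
FPKM in each library (points) for the 18 members that passed the test, with mean ± SD of 3 libraries beside them, Agrimol B left of control, on linear axes from 0. In none of the 18 do the groups overlap: HK2 sits between 28.2 and 29.8 FPKM with Agrimol B and between 10.8 and 11.1 FPKM in control, while 1 control library of PDP2 stands at 7.45 FPKM, apart from the other two.

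Lactate dehydrogenase joins pyruvate and lactate, and both of its subunits fell. LDHA, the subunit that favours lactate (chromosome 11, 18394388 to 18408425, plus strand), stood at 277.3, 231.9 and 284.3 FPKM with Agrimol B and 365.2, 454.5 and 436.3 FPKM in control. LDHB, the subunit typical of heart (chromosome 12, 21635342 to 21757857, minus strand), stood at 385.9, 385.9 and 301.8 FPKM with Agrimol B and 632.9, 501.4 and 627.5 FPKM in control. Every treated value was below every control value in both. LDHA fell 1.58-fold (difference -0.66 ± 0.11, adjusted p = 0.00375) and LDHB 1.64-fold (difference -0.71 ± 0.13, adjusted p = 0.00550). The sum of both was 622.4 ± 38.7 FPKM with Agrimol B and 1006 ± 54.4 FPKM in control. LDHB was 57.4% ± 5.53 of the sum with Agrimol B and 58.3% ± 5.51 in control, and the groups overlapped.

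Lactate leaves through monocarboxylate transporters. SLC16A1 encodes MCT1, which carries lactate in either direction. It stood at 29.6, 16.6 and 30.4 FPKM with Agrimol B and 33.0, 33.7 and 32.6 FPKM in control, so all treated values were lower but the second stood apart, and the difference did not pass (-0.41 ± 0.22, adjusted p = 0.172). SLC16A3 encodes MCT4, the exporter of strongly glycolytic cells. It averaged 14.4 ± 1.14 FPKM with Agrimol B and 13.4 ± 1.97 FPKM in control, with overlap (adjusted p = 0.477). BSG, the chaperone that brings both to the membrane and no member of the 37, averaged 203.6 ± 9.98 FPKM with Agrimol B and 182.2 ± 23.4 FPKM in control and did not pass (adjusted p = 0.184).

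Pyruvate enters mitochondria through a carrier of 2 subunits, MPC1 and MPC2, which work as a pair. MPC1 (chromosome 6, 166364919 to 166383013, minus strand) stood at 30.6, 29.1 and 35.0 FPKM with Agrimol B and 21.2, 20.1 and 21.6 FPKM in control. The groups did not overlap and MPC1 rose 1.50-fold (difference 0.56 ± 0.08, adjusted p = 0.00151). MPC2 stood at 10.6, 10.7 and 7.78 FPKM with Agrimol B and 8.16, 13.2 and 13.1 FPKM in control, with overlap, and did not pass (95% interval -0.71 to 0.30). MPC1 was 76.4% ± 4.73 of the summed FPKM of the pair with Agrimol B and 64.9% ± 6.40 in control.

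**Figure D3:**
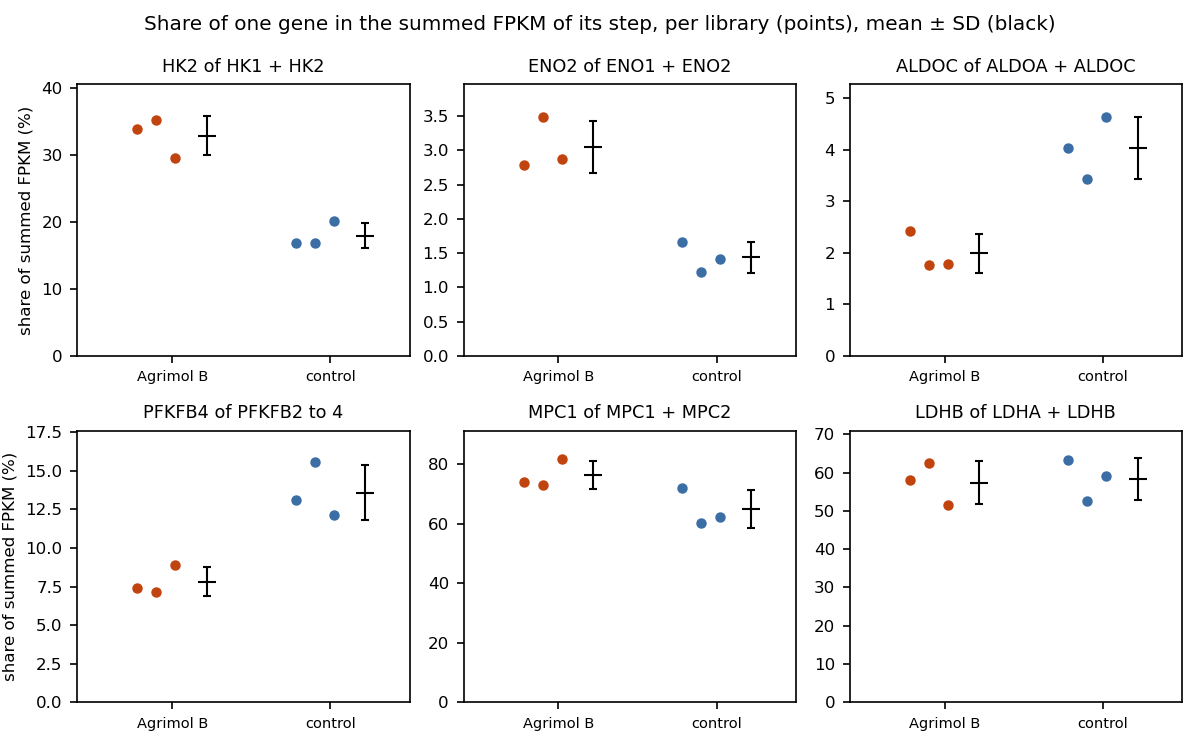
Share of 1 gene in the summed FPKM of its step, in each library (points) with mean ± SD, Agrimol B left of control, axes from 0. HK2 averages 32.9% with Agrimol B and 17.9% in control, ENO2 3.05% and 1.44%, ALDOC 1.99% and 4.04% in the same order, while the shares of LDHB overlap.

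Within-step shares were computed for 11 steps that have more than 1 member. The groups did not overlap in 6 of them. Of all genes tested, 62.2% did not overlap in either direction, but that is for the FPKM of single genes. No such background was computed for shares within a step. The shares of HK2, ENO2, MPC1 and PDK1 were higher and those of ALDOC and PFKFB4 lower with Agrimol B. Of these genes, all but PDK1 were themselves called. With 3 libraries against 3, an exact two-sided permutation test cannot give a p below 0.1, and each of these 6 reached it (0.183 after Benjamini-Hochberg adjustment over the 11 steps), so none could pass 0.05. Shares within a library do not change when all its values are multiplied by 1 factor. Quantile normalization can change them, and they were not recomputed under it.

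The pyruvate dehydrogenase complex has an E1 part of PDHA1 and PDHB, an E2 core of DLAT, an E3 part, DLD, and PDHX, which binds E3 to the core. PDHB (chromosome 3, 58427630 to 58433857, minus strand) stood at 30.4, 32.3 and 35.9 FPKM with Agrimol B and 62.1, 73.8 and 65.0 FPKM in control. It fell 2.04-fold (difference -1.004 ± 0.09, adjusted p = 0.000287), the largest fall of the complex. Its partner PDHA1 stood at 39.3, 38.4 and 36.3 FPKM with Agrimol B and 41.1, 39.7 and 41.2 FPKM in control. PDHA1 lay slightly lower in each treated library and did not pass (difference -0.10 ± 0.05, adjusted p = 0.123), although it did with median-ratio scaling (adjusted p = 0.0295) and quantile normalization (adjusted p = 0.0419). The ratio of PDHB to PDHA1 FPKM was 0.774, 0.841 and 0.990 with Agrimol B and 1.51, 1.86 and 1.58 in control. By FPKM, PDHB thus stood above PDHA1 in control and below it with Agrimol B, though nearly equal in the third Agrimol B library. Such a ranking of different genes depends on the transcript lengths used, which are not known here.

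DLAT, the acetyltransferase core (chromosome 11, 112024814 to 112064390, plus strand), stood at 14.1, 16.4 and 15.1 FPKM with Agrimol B and 25.4, 22.1 and 22.7 FPKM in control. The groups were well apart and DLAT fell 1.54-fold (difference -0.59 ± 0.08, adjusted p = 0.00142). DLD, a dehydrogenase that several mitochondrial complexes share, stood at 33.1, 28.3 and 29.8 FPKM with Agrimol B and 38.0, 34.8 and 40.9 FPKM in control. It fell 1.25-fold (difference -0.31 ± 0.08, adjusted p = 0.0215), a call lost without any of 4 single libraries (adjusted p 0.0586 to 0.0636). PDHX went the other way without passing, at 25.4 ± 1.20 FPKM with Agrimol B and 22.9 ± 0.784 FPKM in control (adjusted p = 0.0652). Its ratio to DLAT was 1.68 ± 0.194 with Agrimol B and 0.983 ± 0.0627 in control, with no overlap.

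Kinases of the PDK family switch the complex off. PDK3 stood at 2.26, 2.12 and 2.19 FPKM with Agrimol B and 3.05, 3.14 and 2.97 FPKM in control. The libraries of each group agreed closely, and PDK3 fell 1.39-fold (difference -0.34 ± 0.05, adjusted p = 0.00284). PDK1, a known target of hypoxia-inducible factor, stood at 4.74, 4.42 and 2.81 FPKM with Agrimol B and 2.90, 2.19 and 2.54 FPKM in control. The third treated library lay among the control values, and the difference of 0.48 ± 0.17 did not pass (adjusted p = 0.0586), while it did without that library (0.66, adjusted p = 0.00667). PDK2 stood at 5.99, 3.69 and 3.55 FPKM with Agrimol B and 4.46, 4.86 and 6.19 FPKM in control, with overlap (adjusted p = 0.405). PDK4, the fasting-induced kinase, was the untested member, at 0.156 ± 0.0335 FPKM with Agrimol B and 0.184 ± 0.0324 FPKM in control. Summed over the 4 kinases, the values were 10.8 ± 2.21 FPKM with Agrimol B and 10.9 ± 0.849 FPKM in control, and the groups overlapped.

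The phosphatases PDP1 and PDP2 switch the complex back on. PDP2 (chromosome 16, 66878589 to 66895754, plus strand) stood at 10.4, 10.5 and 9.26 FPKM with Agrimol B and 2.68, 2.23 and 7.45 FPKM in control. The third control library lay nearer to the treated libraries than to the rest of its own group. PDP2 rose 2.44-fold (difference 1.25 ± 0.36, adjusted p = 0.0276). Without the third control library the difference was 1.68 (adjusted p = 0.000477), and without any other single library the call was lost (adjusted p 0.0624 to 0.0816). PDP1 stood at 31.8, 10.1 and 31.9 FPKM with Agrimol B and 9.80, 8.27 and 9.25 FPKM in control. The second treated library stood near the control values, and the difference of 1.18 ± 0.43 did not pass (adjusted p = 0.0586). Without that library it was 1.70 (adjusted p = 0.000385). That same library was the low one for SLC16A1, and it stood more than 1.5-fold apart from its group in 2.05% of tested genes, against 2.13% to 2.38% for the other five. Summed phosphatase FPKM was 42.2, 20.6 and 41.2 with Agrimol B and 12.5, 10.5 and 16.7 in control. The ratio of summed phosphatase to summed kinase FPKM was 3.22, 1.98 and 4.70 with Agrimol B and 1.18, 1.01 and 1.40 in control, with no overlap but a wide treated spread. The summed kinases overlapped, so this ratio mainly restates the phosphatases, of which PDP1 did not pass and PDP2 had an unstable call. Sums over different genes also depend on the transcript lengths used, which are not known here.

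**Figure D4:**
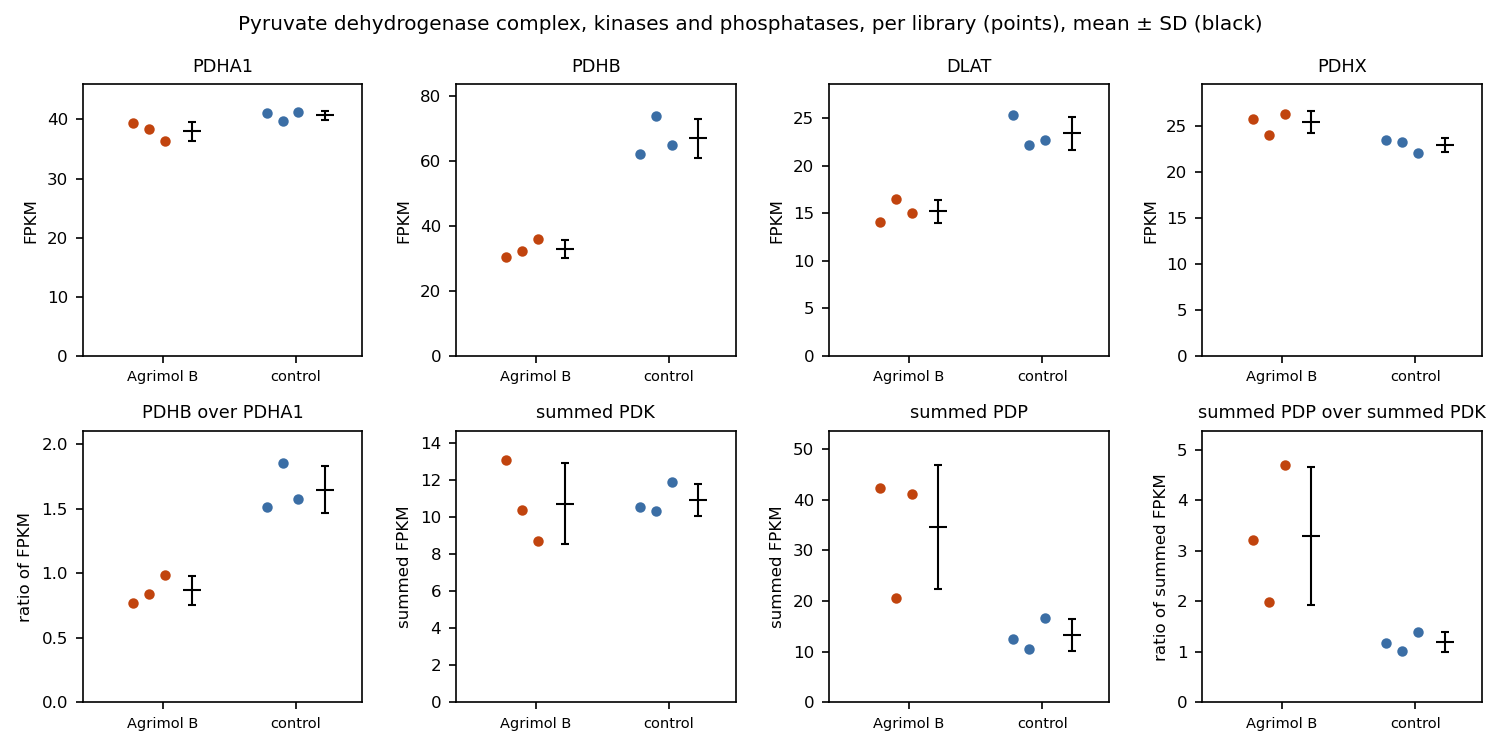
FPKM of 4 subunits of the pyruvate dehydrogenase complex (top), and the ratio of its E1 subunits with the summed kinases, summed phosphatases and their ratio (bottom), in each library (points) with mean ± SD, Agrimol B left of control, axes from 0. PDHB lies between 30.4 and 35.9 FPKM with Agrimol B and between 62.1 and 73.8 FPKM in control, and the summed kinases overlap while the summed phosphatases do not.

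Across the whole route, 26 of the 36 tested members had no overlap between groups. In 19 of them (52.8%) the Agrimol B values were the lower ones, against 26.0% of all genes tested, and in 7 (19.4%) the higher ones, against 36.2%. By stretch of the pathway, 1 of the 11 members up to the fructose-2,6-bisphosphate enzymes rose and 4 fell, 1 of the 13 members from aldolase to lactate export rose and 6 fell, and 2 of the 12 tested members of pyruvate entry rose and 4 fell, where 30.6% of all genes tested rose and 21.4% fell. The summed FPKM of all 37 members was 6174, 5420 and 5634 with Agrimol B and 6677, 6961 and 6662 in control. This was 1.75%, 1.53% and 1.59% of total FPKM with Agrimol B and 1.88%, 1.94% and 1.85% in control. GAPDH, ENO1 and PKM, none of which passed, made up 66.1% ± 2.05 of the members' sum with Agrimol B and 62.9% ± 0.452 in control.

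**Figure D5:**
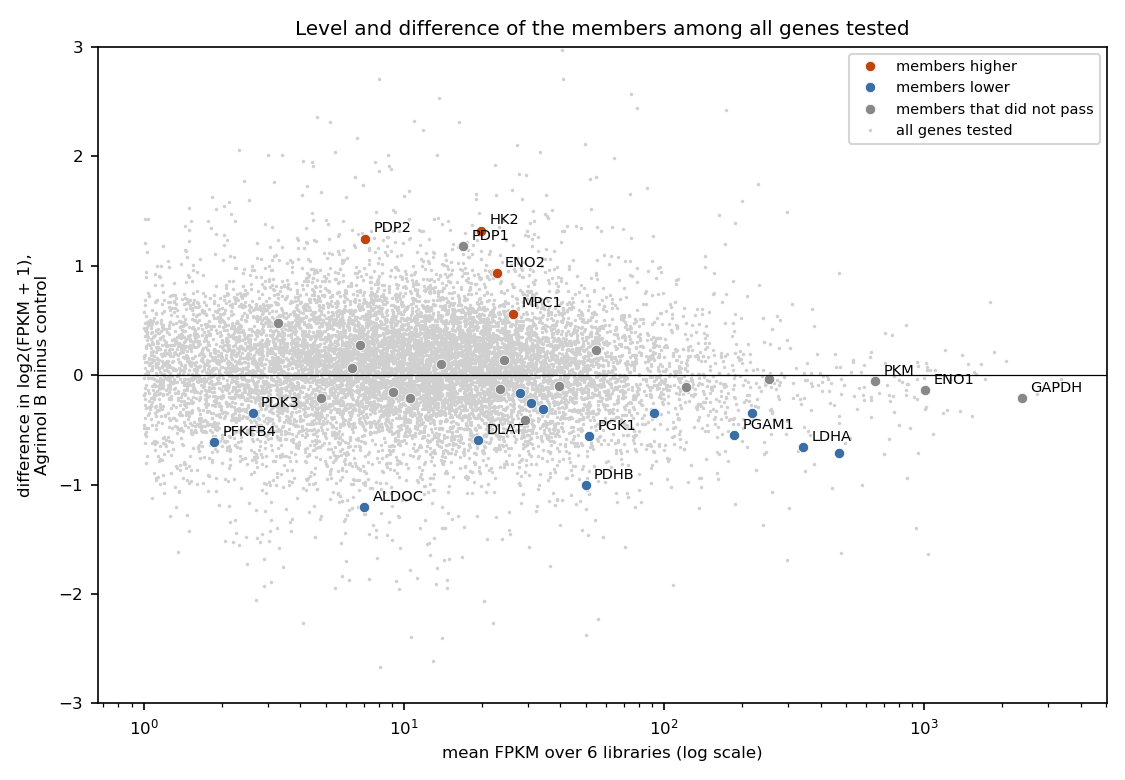
Mean FPKM over the 6 libraries (log axis) against the difference in log2(FPKM + 1), Agrimol B minus control, for all 12143 tested genes (grey dots, 7 of them outside the axis) and the 36 tested members (large points). The 4 members that rose lie below 100 FPKM, while members that fell, such as PGAM1 and LDHA, also lie above it.

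The pathways around these genes were described with 8 further lists, which held 115 genes in the table and 97 tested, of which 22 rose and 27 fell, beside 30.6% and 21.4% of all genes tested. With median-ratio scaling 19 rose and 38 fell, beside 25.4% and 25.9% of all genes, and with quantile normalization 19 rose and 37 fell. Each list is small, and its counts below stand against the same shares of all genes. Among 15 tested isoforms and side enzymes of glycolysis, 4 rose and 2 fell (median difference 0.16). This order turned to 2 higher and 4 lower with either of these scalings and to 3 higher and 6 lower without the filter on low values. With a filter at a mean of 5 FPKM it turned to 1 higher and 2 lower. The higher count was 2 without the second or the third Agrimol B library or the first control library. The lower count was 1 without the second or the third Agrimol B library or the third control library. HKDC1, a further hexokinase-domain gene, averaged 3.65 ± 0.290 FPKM with Agrimol B and 1.46 ± 0.123 FPKM in control (2.49-fold higher, adjusted p = 0.000231), and ENO3, the muscle enolase, 15.9 ± 0.786 and 12.4 ± 1.22 FPKM in that order (adjusted p = 0.0131). The transporter gene SLC2A6 averaged 7.63 ± 0.916 FPKM with Agrimol B and 15.4 ± 0.174 FPKM in control (adjusted p = 0.000334).

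Of 21 tested genes listed for the tricarboxylic acid cycle, which burns the acetyl-CoA made by pyruvate dehydrogenase, 8 fell and 0 rose (median -0.18). Under median-ratio scaling 11 were lower, and under quantile normalization 12. The list also holds ACO1, IDH1 and MDH1, which encode cytosolic enzymes, and IDH1 was among those that fell. OGDH, a subunit of the oxoglutarate dehydrogenase that also uses DLD, averaged 25.4 ± 3.33 FPKM with Agrimol B and 36.8 ± 3.64 FPKM in control (adjusted p = 0.0111). SDHA, of succinate dehydrogenase, averaged 58.1 ± 0.895 FPKM with Agrimol B and 78.2 ± 2.22 FPKM in control (adjusted p = 0.000325), and OGDHL 3.19 ± 0.164 and 5.53 ± 0.480 FPKM in that order. Of 9 tested genes listed for the pentose phosphate pathway, 4 fell and 1 rose (median -0.12). Those that fell include PRPS1 and PRPS2, which act on the ribose-5-phosphate that the pathway makes. The transketolase TKT averaged 64.8 ± 5.87 FPKM with Agrimol B and 115 ± 8.31 FPKM in control (adjusted p = 0.000507) and PRPS2, which makes phosphoribosyl pyrophosphate, 15.3 ± 1.91 and 25.2 ± 2.37 FPKM. H6PD, the hexose-6-phosphate dehydrogenase of the endoplasmic reticulum, rose 1.84-fold (adjusted p = 0.000168).

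Of 11 genes of hexosamine synthesis and of fructose and mannose entry, 4 rose and 3 fell (median 0.29), near the 30.6% and 21.4% of all genes. Without the third control library 6 rose, and without any Agrimol B library or the second control library 2 fell. GFPT1, the first enzyme of hexosamine synthesis, which draws fructose-6-phosphate from glycolysis, averaged 29.2 ± 0.470 FPKM with Agrimol B and 8.61 ± 0.263 FPKM in control (3.39-fold higher, adjusted p = 1.06e-05). UAP1 and PGM3 of the same pathway rose 1.91-fold and 1.69-fold. Of 14 glycogen genes 5 rose and 4 fell (median 0.12), also near the shares of all genes, with GYG2 and the synthase GYS1 2.15-fold and 1.47-fold lower and the phosphorylase PYGB 1.49-fold higher with Agrimol B. Of 6 genes of pyruvate carboxylation and gluconeogenesis 2 rose and 2 fell (median -0.26), with 1 lower without the first or the second Agrimol B library or the second control library. The mitochondrial PCK2 rose 2.13-fold, G6PC3 1.27-fold, and the malic enzyme ME1 fell 1.71-fold. Of 7 genes of the NADH shuttles 1 rose and 3 fell (median -0.31). The aspartate aminotransferase GOT1 rose 1.76-fold, and the carriers SLC25A12 and SLC25A13 fell 1.53-fold and 1.32-fold.

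Of 14 regulators of glycolytic genes 5 rose, near the 30.6% of all genes, and 1 fell (median 0.21). The lower count was 3 with median-ratio scaling or quantile normalization and 2 without the first or the second control library. The gene that fell was HIF1A, which encodes the alpha subunit of hypoxia-inducible factor 1, at 59.8, 59.7 and 61.4 FPKM with Agrimol B and 88.7, 84.8 and 79.9 FPKM in control (1.40-fold lower, adjusted p = 0.000486). EPAS1, which encodes the HIF2 alpha subunit, stood at 38.2, 37.9 and 36.6 FPKM with Agrimol B and 20.4, 28.8 and 28.9 FPKM in control (adjusted p = 0.0183). The 2 alpha subunits thus differed in direction at the RNA level, and HIF proteins are controlled mainly after translation. TXNIP, which restrains glucose uptake through GLUT1, rose 7.25-fold, and the transcription factor KLF4 rose 6.47-fold.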

How the data were processed

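The authors deposited 1 table of FPKM values with 1 column per library, and the unit follows the table's name and values. HISAT, Trimmomatic, cutadapt and FastQC appear in the submitters' processing notes with the build hg38, and a stranded kit for mRNA is named per the labels. The sources used here do not name the program or annotation behind the FPKM values, or whether strand was used. Columns of the treated libraries carry the names in the sample descriptions. Control columns differ from their descriptions in the order of 2 letters and were matched by the shared number. The table had 0 unused value columns and 0 pairs of identical libraries. Because FPKM hides the number of reads, only relative depth was estimated, from ratios of genes under 0.05 FPKM in 15 pairs of libraries.

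Values were analysed as log2(FPKM + 1), for genes averaging 1 FPKM or more, with limma 3.58.1 in R 4.3.3 (group term, moderation with a variance trend, two-sided, Benjamini-Hochberg adjustment over 12143 genes, threshold 0.05). For genes of low level, log2 differences so computed are smaller than the change in FPKM. Exact permutation tests of shares used scipy 1.17.1 in Python 3.11.15. The limma fit was tested on simulated data of the same design, with independent normal errors of the spread that the fit had estimated. Such data meet the assumptions of the fit, so they do not show how a single library that stands apart affects the calls. Alternatives were another pseudocount (0.1), no filter or a filter of 5 FPKM, median-ratio scaling, quantile normalization, rescaling to equal library totals, no variance trend, a replicate block, and leaving out each library. The members, lists and tests were chosen with earlier results of these data known. All 37 members are named, and of each further list up to 3 called genes with the largest difference. BSG, PGAM4 and HIF1A fall outside that rule and were chosen after their values were seen. Coordinates are from GENCODE 29 and promoter windows from RefSeq (GRCh38.p14). By that annotation 7 members (GPI, PFKFB4, ALDOA, ALDOC, PGK1, ENO2 and LDHB) overlap another protein-coding gene on their strand, and 24 overlap a gene on the other strand. The labels name no batch.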

Additional observations from a re-analysis of the deposited data

How the results depend on the processing

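Of the 18 members that passed, 13 kept their call in each of the 14 alternatives run (HK2, ENO2, MPC1, SLC2A1, PFKFB4, ALDOC, PGK1, PGAM1, LDHA, LDHB, PDHB, DLAT and PDK3, except that PFKFB4 and PDK3 fell below the filter of 5 FPKM and were not tested there). The other five, GPI, PFKM, ALDOA, DLD and PDP2, lost it in at least 1 alternative and reversed in none, and 8 members without a call gained one in at least 1. Leaving out 1 library at a time gave 3 to 5 members higher and 10 to 15 lower, and a median member difference of -0.20 to -0.12. Members whose sign turned had no call as reported or where the sign turned, though ENO1 was called lower with median-ratio scaling and without the first Agrimol B or the first control library (adjusted p 0.0246 to 0.0456). With quantile normalization these were PFKFB2 (-0.020), TPI1 (0.048), ENO1 (0.033) and PKM (0.18). With 1 library left out the differences ran from -0.26 to 0.025 for PFKFB3, from -0.23 to 0.16 for TPI1 and from -0.17 to 0.10 for PKM. Same-numbered libraries did not deviate together (r = 0.04, -0.01 and -0.02), so the numbers were not taken to pair them. With a replicate block 5 members were higher and 12 lower, PDP1 gaining a call (adjusted p = 0.0446) and GPI (0.0910) and ALDOA (0.0545) losing theirs. Median-ratio scaling moved the median of all genes from 0.07 to 0.01 and gave 3089 genes higher and 3148 lower, against 3713 and 2598. The unknown read number leaves the counting error of low members such as PFKFB4 and PDK4 unknown.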
